A study of Mus musculus with 18 samples.

Results

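Immediate-early response genes are switched on within minutes of a signal reaching a cell, before any new protein is made. The 10 genes described here, Fos, Fosb, Jun, Junb, Jund, Egr1, Ier2, Atf3, Dusp1 and Nr4a1, were chosen by an exact match of their symbols among the 56876 genes of an RNA sequencing table of mouse splenocytes. All 10 were found, and 10 of 10 were among the 16635 genes that reached 1 TPM in at least 3 libraries. Fosb reached 1 TPM in only 4 libraries, all from the N groups. TPM, the unit of the deposited values, gives a transcript's share of all transcripts and is corrected for transcript length, so levels can be set side by side between genes. Cells came from female Balb/c mice whose age the sources used here do not give, and some of the mice had received 4T1 cells, a mouse mammary carcinoma line, in the mammary fat pad on day 0. Antibody to G-CSF, to PD-1 or IgG was injected intraperitoneally at 10 mg/kg on days 18, 21 and 24, and splenocytes were taken on day 29.

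The 18 libraries fall by their titles into 6 groups of 3. T_GC, T_P and T_I are described as tumour-bearing, and N_GC, N_P and N_I carry the treatment label WT. The labels do not expand the codes GC, P and I, so no code is equated with an antibody here. They also conflict, since the treatment field names an anti-PD-1 treatment for every T library and the cell-type field calls all 18 libraries tumour-bearing. Nothing says that the 3 libraries of a group came from separate animals, so the p-values measure the spread between these libraries, which may be technical. Whether animals were pooled is not given in the sources used here.

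Fos and Jun proteins pair through leucine zippers into the AP-1 transcription factor, Atf3 is a related zipper protein of the ATF/CREB family, Egr1 is a zinc-finger factor, and Nr4a1 (Nur77) is an orphan nuclear receptor. Their transcription is driven mainly by MAP kinases and calcium acting on serum response factor, its Elk partners and CREB, and it is shut down quickly. Dusp1 is one of the brakes, a phosphatase that removes the activating phosphates from MAP kinases, and Ier2 is a small nuclear protein of the same rapid wave. In lymphocytes Egr1 and Nr4a1 are known as readouts of antigen receptor signalling. In myeloid cells Junb, Fos and Dusp1 are known as responses to cytokines and microbial products. Handling of tissue during the preparation of single cells is also known to induce this group of genes.

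The stretch of 250 bases before the start of a gene could be read for 8 of the 10 members, from RefSeq on GRCm38.p6, an earlier build than the GRCm39 used for quantification. Egr1 and Ier2 had no entry. The 4 sequences shown are those of the members whose upstream stretch held the core of the cAMP response element and whose levels the results turn on: Fos (chr12:85473640-85473889, plus strand), Junb (chr8:84978749-84978998, minus strand), Dusp1 (chr17:26508473-26508722, minus strand) and Nr4a1 (chr15:101266596-101266845, plus strand). Each is written 5′ to 3′ along the gene. Capitals mark TGACG or its reverse complement, the complete element TGACGTCA where the core is part of it, and TATAAA.
Fos: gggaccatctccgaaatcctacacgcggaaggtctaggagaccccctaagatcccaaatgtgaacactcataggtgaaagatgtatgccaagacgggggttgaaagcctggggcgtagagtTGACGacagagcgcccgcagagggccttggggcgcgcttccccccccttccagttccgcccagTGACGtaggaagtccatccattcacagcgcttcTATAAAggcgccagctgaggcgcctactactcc
Junb: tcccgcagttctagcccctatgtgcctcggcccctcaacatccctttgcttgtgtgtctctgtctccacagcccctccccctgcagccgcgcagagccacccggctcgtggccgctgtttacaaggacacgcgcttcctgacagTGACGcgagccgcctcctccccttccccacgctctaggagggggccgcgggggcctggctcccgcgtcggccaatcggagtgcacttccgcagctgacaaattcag
Dusp1: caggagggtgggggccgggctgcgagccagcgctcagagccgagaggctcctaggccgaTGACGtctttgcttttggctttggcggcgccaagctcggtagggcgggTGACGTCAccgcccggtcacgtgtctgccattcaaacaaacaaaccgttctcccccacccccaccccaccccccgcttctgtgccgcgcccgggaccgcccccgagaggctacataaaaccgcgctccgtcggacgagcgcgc
Nr4a1: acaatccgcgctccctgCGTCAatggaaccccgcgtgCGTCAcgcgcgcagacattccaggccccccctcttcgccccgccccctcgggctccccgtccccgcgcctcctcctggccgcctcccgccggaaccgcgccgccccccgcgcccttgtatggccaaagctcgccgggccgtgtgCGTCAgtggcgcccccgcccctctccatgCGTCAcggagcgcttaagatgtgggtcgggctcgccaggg

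TGACG on either strand was present in 17.765% of the 32851 mouse promoters of the same length. In the Nr4a1 stretch it occurred 4 times, starting 233, 213, 69 and 40 bases before the gene. Fos held 2 copies, 129 and 66 bases before its start, and a TATAAA box at 33 bases, a sequence that 7.592% of promoters have on the gene's strand. Dusp1 held 3 matches, and those at 143 and 140 bases are the overlapping strands of 1 complete TGACGTCA, which 1.546% of promoters contain. Junb, Fosb and Atf3 each had 1 copy, and Jun and Jund had none in this window. Neither TGANTCA, the letters of the AP-1 site (6.749% of promoters), nor a CArG box, the site of serum response factor (1.467%), was found in any of the 8 windows. Bases further than 250 before the start were not searched, so sites there would have been missed. The matches describe these letters only, and no binding was measured.

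The members did not move as a block. In the T_I and T_P groups Fos and Junb stood above the matching N groups, while Egr1, Nr4a1, Jund and Fosb stood below them. In T_GC only Fos and Junb passed the test against N_GC, although Nr4a1 was lower in every T_GC library. Between the N groups no member was called. The 10 genes summed to between 411 and 589 TPM in every library. Most of that sum came from Junb, Jund and Ier2, with means of 154, 146 and 78.5 TPM over the 18 libraries. The sum therefore says little about the other members. Its ranges lay just apart under code I, at 472 to 544 TPM in T_I, against 439 to 471 TPM in N_I. They overlapped under code P, at 454 to 589 TPM in T_P, against 411 to 497 TPM in N_P. Under GC they also overlapped, at 491 to 565 TPM in T_GC, against 427 to 495 TPM in N_GC. No difference in the sum was tested.

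**Figure D1:**
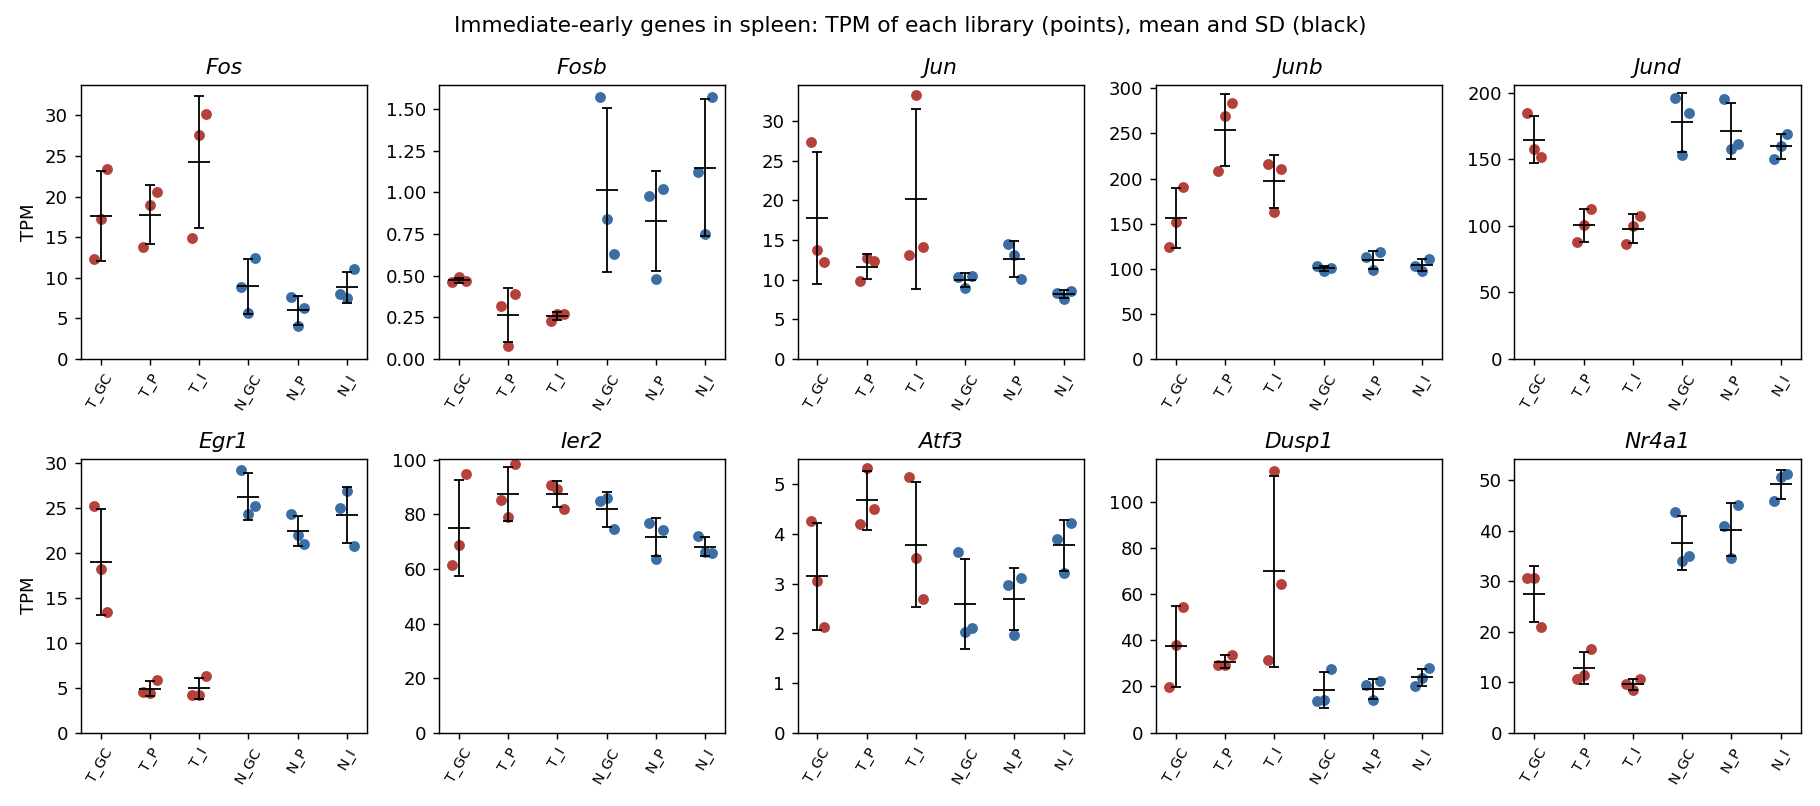
TPM of the 10 immediate-early genes (vertical axes, one panel per gene) in the 6 groups (horizontal axes). Points are libraries, and the black marks are the mean and SD of 3. Egr1 lies between 4.18 and 6.32 TPM in T_I and T_P and between 13.5 and 29.2 TPM in the other 4 groups, and Junb is at least 125 TPM in every T library and at most 119 TPM in every N library.

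The cells in the libraries differed strongly between groups, and bulk RNA cannot tell fewer cells of a type from less RNA per cell. The 14 neutrophil markers summed to 37115 to 60178 TPM in T_GC, 188508 to 204265 in T_P and 195338 to 202367 in T_I, against 557 to 1209 in N_GC, 3017 to 4890 in N_P and 2192 to 7114 in N_I. The 9 B cell markers ran the other way, at 2315 to 3600 TPM in T_GC, 612 to 935 in T_P and 508 to 1021 in T_I, against 4303 to 4516 in N_GC, 3804 to 4344 in N_P and 3608 to 4223 in N_I. The 9 T cell markers summed to 423 to 641 TPM in T_GC, 124 to 166 in T_P and 153 to 161 in T_I, and to between 905 and 1404 in the N groups. All 14 neutrophil markers were called higher, and all 9 B cell and all 9 T cell markers lower, in T_I against N_I and in T_P against N_P. No neutrophil, B cell or T cell marker was listed at 0 in any library; the lymphoid markers that define spleen were present in every group. The part of these cell types in the differences below was not tested. TPM totals are fixed, and the sequencing depth behind them is unknown. Rescaling each library by the median of ratios to the geometric mean over genes raised the median log2 difference of all genes by 0.48 in T_I against N_I and by 0.44 in T_P against N_P, and lowered it by 0.43 in T_GC against T_I and by 0.44 in T_GC against T_P.

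Fos, the zipper protein that dimerises with Jun proteins, was higher in the T groups under each code. It measured 12.3, 17.3 and 23.4 TPM in T_GC, against 8.85, 5.61 and 12.4 TPM in N_GC. In T_P it measured 13.7, 19.0 and 20.6 TPM, against 7.64, 4.02 and 6.27 TPM in N_P. In T_I it measured 14.9, 27.6 and 30.1 TPM, against 7.95, 7.53 and 11.03 TPM in N_I. The groups did not overlap under codes P and I, and under GC the lowest T library lay just under the highest N library. On the log2(TPM + 1) scale used for all tests, the difference was 1.32 (SE 0.31, adjusted p = 0.001687) in T_I against N_I and 1.44 (SE 0.31, adjusted p = 0.00081) in T_P against N_P. In T_GC against N_GC it was 0.92 (adjusted p = 0.03512), a call that was lost in 7 of 25 alternative fits, with adjusted p between 0.01831 and 0.1551. It was not called without replicate 21 or 37 of T_GC or replicate 11 or 36 of N_GC, where the adjusted p was 0.07988, 0.134, 0.06899 and 0.1551.

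Fosb, its close paralog, was scarce throughout and ran opposite to Fos. It was at 0.46, 0.49 and 0.47 TPM in T_GC, against 1.57, 0.84 and 0.63 TPM in N_GC. T_P libraries held 0.32, 0.08 and 0.39 TPM, against 0.98, 0.48 and 1.02 TPM in N_P. T_I libraries held 0.23, 0.27 and 0.27 TPM, against 1.12, 0.75 and 1.57 TPM in N_I. Every T library therefore lay below every N library of its code. Since Fosb passed the filter only through N libraries, its test in the filtered table is conditioned on high N values, and the test with no filter is given here. In that fit the difference was -0.76 in T_I against N_I (adjusted p = 0.003049) and -0.53 in T_P against N_P (adjusted p = 0.02899), and in T_GC against N_GC it was -0.42 (adjusted p = 0.1345). The added 1 TPM shrinks the differences of a gene at this level. In the filtered table the T_P call was lost without T_P replicate 39 (adjusted p = 0.1025) and without N_P replicate 17 (0.08088) or 38 (0.08709).

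Junb, a Jun protein induced by cytokines and known to dampen some targets of Jun, was higher in the T groups under every code. Its level was 125, 152 and 191 TPM in T_GC, against 103, 98.1 and 101 TPM in N_GC. It was 209, 269 and 284 TPM in T_P, against 113, 98.8 and 119 TPM in N_P. It was 216, 163 and 211 TPM in T_I, against 103, 97.6 and 111 TPM in N_I. No T library overlapped an N library. The rise was 0.60 in T_GC (SE 0.15, adjusted p = 0.005904), 1.19 in T_P (adjusted p = 4.24e-06) and 0.91 in T_I (adjusted p = 6.62e-05), each against its N group. With the median-of-ratios scale the T_I value was 1.43.

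Jund, the Jun protein that many resting cells express, went the other way under 2 of the codes. T_GC libraries held 185, 158 and 152 TPM, against 196, 153 and 185 TPM in N_GC. T_P libraries held 88.1, 101 and 113 TPM, against 196, 158 and 161 TPM in N_P. T_I libraries held 86.4, 100.2 and 108 TPM, against 151, 161 and 169 TPM in N_I. The groups overlapped under GC alone. Jund fell by 0.71 in T_I against N_I (adjusted p = 0.0001117) and by 0.76 in T_P against N_P, while -0.11 in T_GC against N_GC was not called. Under median-of-ratios scaling the difference of T_I and N_I shrank to -0.18 (adjusted p = 0.1532) and that of T_P and N_P to -0.28 (adjusted p = 0.0358), so relative to the median gene the fall of Jund in T_I was not called.

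Jun, the founding member of the family, spread most widely of the Jun genes in T_I and T_GC. It measured 27.3, 13.8 and 12.2 TPM in T_GC, against 10.4, 8.96 and 10.5 TPM in N_GC. T_P libraries had 9.84, 12.8 and 12.3 TPM, against 14.5, 13.2 and 10.1 TPM in N_P. T_I libraries had 13.2, 33.3 and 14.1 TPM, against 8.33, 7.59 and 8.57 TPM in N_I. T_I replicate 12 and T_GC replicate 10 stood well above their groups, and T_GC and T_I did not overlap their N groups while T_P did. Jun was called higher in T_I against N_I (1.09, SE 0.30, adjusted p = 0.005135), and without T_I replicate 12 the difference was 0.68 (adjusted p = 0.02771). Its values of -0.10 in T_P against N_P and 0.70 in T_GC against N_GC did not pass, and the T_GC value was 0.36 without T_GC replicate 10.

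Expressed as shares of Jun, Junb and Jund together, the family was mostly Jund in the N groups and mostly Junb in T_P and T_I. Junb made up 45.9% ± 8.45 in T_GC, 69.3% ± 1.12 in T_P and 62.3% ± 6.79 in T_I, against 35.0% ± 2.34 in N_GC, 37.5% ± 3.08 in N_P and 38.2% ± 1.37 in N_I (SD, n = 3 each). Jund made up 48.8% ± 6.06 in T_GC, 27.5% ± 1.18 in T_P and 31.2% ± 3.37 in T_I, against 61.5% ± 2.35 in N_GC, 58.2% ± 2.49 in N_P and 58.8% ± 1.52 in N_I. Jund was the most abundant of the 10 members in all N libraries and in T_GC replicates 10 and 21, and Junb was so in all T_P and T_I libraries and in T_GC replicate 37. Ratios within a library do not depend on how libraries are scaled. In the Fos family, which with Fosl1 and Fosl2 summed to 37.6 ± 9.54 TPM in T_GC, 61.1 ± 4.28 in T_P and 59.8 ± 2.50 in T_I, against 13.6 ± 3.96 in N_GC, 14.1 ± 3.07 in N_P and 16.6 ± 4.22 in N_I, Fosb was 0.43% of the sum in T_I, against 6.86% in N_I. Fosl2, a Fos protein without the strong activation domain of Fos, had the largest mean share in T_GC, T_P, T_I and N_P. Its share was 52.2% ± 2.61, 70.3% ± 4.20, 58.9% ± 12.9 and 52.5% ± 5.31 in that order. In T_GC replicate 37 and T_I replicate 27 Fos was the larger. The mean share of Fos was 46.5% in T_GC, 28.9% in T_P and 40.3% in T_I, against 64.7% in N_GC, 41.8% in N_P and 53.6% in N_I. Fosl1 was listed at 0 in many libraries.

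**Figure D2:**
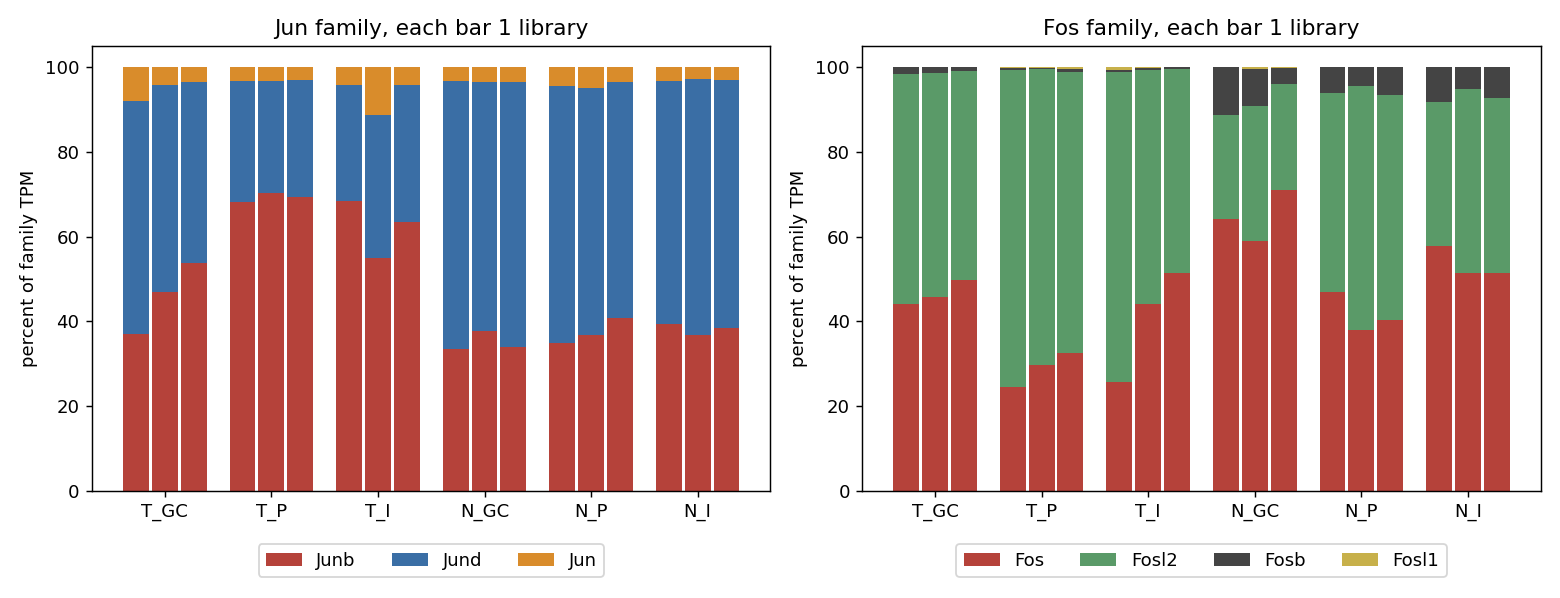
Share of each gene in the summed TPM of the Jun family (left) and Fos family (right), in percent (vertical axes), with 1 bar per library, grouped as T_GC, T_P, T_I, N_GC, N_P and N_I (horizontal axes). Junb averages 69.3% of the Jun family in T_P and 62.3% in T_I, against 37.5% in N_P and 38.2% in N_I, with T_GC at 45.9% and N_GC at 35.0%.

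On the log2(TPM + 1) scale Egr1 and Nr4a1 were the members with the largest falls. The added 1 TPM shrinks the fall of Fosb, from a mean of 1.15 TPM in N_I to 0.26 TPM in T_I, far more than theirs. Egr1 was at 25.2, 18.1 and 13.5 TPM in T_GC, against 29.2, 24.3 and 25.2 TPM in N_GC. It was at 4.47, 4.36 and 5.82 TPM in T_P, against 24.3, 22 and 21.0 TPM in N_P. It was at 4.18, 4.24 and 6.32 TPM in T_I, against 25.0, 26.9 and 20.8 TPM in N_I. T_P and T_I lay entirely below their N groups, whereas T_GC replicate 10 lay within the range of the N_GC libraries. Egr1 fell by 2.10 in T_I (SE 0.19, adjusted p = 1.452e-07) and by 2.0 in T_P against their N groups. In T_GC against N_GC the value was -0.49 (adjusted p = 0.0606), and without T_GC replicate 10 it was -0.71 and called (adjusted p = 0.006706).

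Nr4a1 was at 30.7, 30.6 and 21.0 TPM in T_GC, against 43.8, 33.9 and 35.0 TPM in N_GC. T_P libraries held 10.5, 11.4 and 16.5 TPM, against 40.9, 34.6 and 45.2 TPM in N_P. T_I libraries held 9.71, 8.47 and 10.6 TPM, against 45.9, 50.6 and 51.2 TPM in N_I. No T library overlapped the N libraries of its code. The fall was 2.25 on the log2 scale in T_I (difference -2.25, SE 0.17, adjusted p = 2.374e-08) and 1.59 in T_P (difference -1.59), while -0.45 in T_GC missed the threshold (adjusted p = 0.05412). Under median-of-ratios scaling the falls of Egr1 and Nr4a1 were still called, at -1.64 and -1.76 in T_I against N_I. Over the 18 libraries the level of Egr1 went with that of Mef2c, a transcription factor used by B cells (Pearson r = 0.996), and of Pou2f2, the B cell octamer factor Oct-2 (r = 0.995). Gbp9 had the highest r (0.996), and Sema4d, Il10ra and Il4i1 were most like Nr4a1 (0.980, 0.979 and 0.977). These r rest largely on the gap of T_I and T_P to the other 4 groups, and carry no test.

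Dusp1, the MAP kinase phosphatase, varied widely within T_I, T_GC and N_GC, and little within T_P. It measured 19.6, 37.9 and 54.6 TPM in T_GC, against 13.7, 14.3 and 27.5 TPM in N_GC. T_P libraries had 29.2, 29.2 and 33.8 TPM, against 20.7, 14.2 and 22.4 TPM in N_P. T_I libraries had 31.7, 113 and 64.2 TPM, against 20.4, 23.5 and 28.0 TPM in N_I. T_P and T_I did not overlap their N groups. Only T_I against N_I was called (1.34, SE 0.41, adjusted p = 0.009072), and without T_I replicate 12 the difference was 0.90 with an adjusted p of 0.05761. The values of 0.68 in T_P (adjusted p = 0.1503) and 0.93 in T_GC were not called. In 2 of 25 alternative limma fits the T_P value was called. These were the fit of T_P and N_P libraries alone (adjusted p = 0.009378) and median-of-ratios scaling (1.16, adjusted p = 0.02907). The T_GC value was called in 3 of 25.

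Ier2 and Atf3 differed by under 1 log2 unit between T and N on the TPM scale. Ier2 was at 61.4, 68.8 and 94.9 TPM in T_GC, against 84.8, 85.9 and 74.5 TPM in N_GC, and the groups overlapped. It was at 90.8, 89.3 and 81.9 TPM in T_I, against 72.2, 66.2 and 65.8 TPM in N_I, without overlap. T_P libraries ranged from 78.9 to 98.3 TPM, against 63.8 to 76.8 TPM in N_P, also without overlap, and the difference of 0.28 was not called (adjusted p = 0.06658). The Ier2 rise in T_I was 0.35 (adjusted p = 0.02512), but the call was lost without T_I replicate 8 or 12 (adjusted p = 0.07069 and 0.06302) or N_I replicate 92 or 96 (0.06492 and 0.06597). With the median-of-ratios scale it was larger, 0.87 (adjusted p = 0.0001416). Atf3 ranged over 2.12 to 4.25 TPM in T_GC, 4.19 to 5.33 in T_P and 2.68 to 5.15 in T_I, against 2.02 to 3.64 in N_GC, 1.97 to 3.11 in N_P and 3.21 to 4.22 in N_I. It was called higher in T_P against N_P alone (0.63, adjusted p = 0.0235), a call lost without T_P replicate 39 (adjusted p = 0.08011) or N_P replicate 29 (adjusted p = 0.104), and it had a difference of -0.02 in T_I against N_I (adjusted p = 0.9331). Rescaled, the T_P difference of Atf3 was 1.03 (adjusted p = 0.0009003).

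Counted over the set, T_I against N_I called 5 members higher and 4 lower, where 69.8% of all genes tested were called, 17.4% higher and 52.4% lower. One of the lower calls is Fosb, admitted by its N libraries, and the other 9 members had 5 higher, 3 lower and a median difference of 0.35, beside -0.45 for all genes. T_P against N_P called 3 higher (Fos, Junb and Atf3) and 4 lower (Egr1, Nr4a1, Jund and Fosb), where 69.2% of all genes were called, 18.9% higher and 50.3% lower. The median was 0.28 over the 9 members without Fosb and -0.41 over all genes. T_GC against N_GC called 2 higher and 0 lower, where 33.3% of all genes were called, 14.3% higher and 18.9% lower, and the medians were 0.20 over the 9 members and -0.09 over all genes. At an unadjusted p under 0.05 the T_GC comparison had 7 of the 10 members and 43.3% of all genes. Fosb, admitted by its N libraries, is among those 7, so no excess over all genes is read from that count. With libraries rescaled by the median of ratios, all genes split into 5399 higher and 4973 lower in T_I against N_I, 5465 and 5037 in T_P against N_P, and 3015 and 2168 in T_GC against N_GC. Under that scaling Fosb did not pass the filter, Ier2 and Dusp1 were also called higher in T_P against N_P (0.77 and 1.16), and no called member turned its direction. With so large a share of all genes called under codes P and I, the counts of called members say little that is particular to them.

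**Figure D3:**
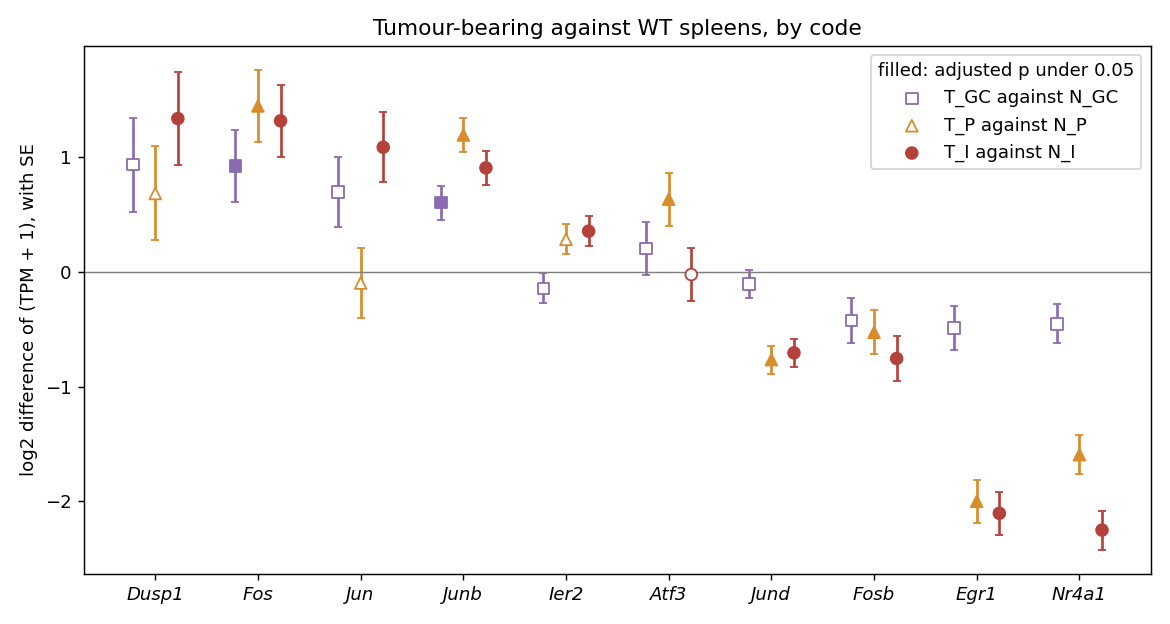
Difference of log2(TPM + 1) between T and N libraries of the same code (vertical axis), with its SE, for each member (horizontal axis). Squares stand for T_GC against N_GC, triangles for T_P against N_P and circles for T_I against N_I, filled where the adjusted p is under 0.05. Egr1 and Nr4a1 reach -2.10 and -2.25 in T_I against N_I but only -0.49 and -0.45 in T_GC against N_GC, while Fos and Junb are filled under all 3 codes.

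Within the tumour-bearing groups, Egr1, Nr4a1 and Jund were higher in T_GC than under either other code. Against T_I the differences were 1.73 for Egr1 (SE 0.19, adjusted p = 2.522e-06), 1.41 for Nr4a1 (SE 0.17, adjusted p = 6.389e-06) and 0.74 for Jund (adjusted p = 0.0001036), with no overlap between the libraries listed above. Against T_P they were 1.73, 1.04 and 0.71, and Junb was lower (-0.71, adjusted p = 0.000766). No member was called lower in T_GC against T_I, where the medians were -0.17 for all 10 members (-0.21 without Fosb) and 0.38 for all genes and 61.5% of all genes were called, 48.7% higher and 12.7% lower. In T_GC against T_P, 61.8% were called, 49.1% higher and 12.7% lower, and the medians were 0.20 for the 10 members (0.16 without Fosb) and 0.39 for all genes. Markers of many cell types also differed. In T_GC against T_I, 9 of 9 B cell, 9 of 9 T cell, 6 of 6 NK cell and 7 of 7 dendritic cell markers were higher. So were 9 of 12 macrophage and monocyte (1 lower), 5 of 8 erythroid and 1 of 3 tested endothelial and stromal markers. All 14 neutrophil markers and 1 of 5 megakaryocyte and platelet markers were lower. Under median-of-ratios scaling 8 T cell, 5 dendritic cell and 3 erythroid markers were higher. Of the macrophage and monocyte markers 8 were then higher and 2 lower. The part of these cell types was not tested.

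The scaling mattered most here. Under the median of ratios, 8 members were called in T_GC against T_I, 3 higher and 5 lower. Egr1, Nr4a1 and Jund stayed higher (1.32, 0.97 and 0.27), and Fos (-0.87), Junb (-0.82), Dusp1 (-1.28), Ier2 (-0.71) and Atf3 (-0.58) were called lower, while all genes split into 3837 higher and 4761 lower. In T_GC against T_P the call of Jund was lost (0.23, adjusted p = 0.08924), Nr4a1 was at 0.59 and Junb at -1.19, Ier2 (-0.72) and Atf3 (-0.88) were called lower, and all genes split into 3881 higher and 4737 lower. Leaving out T_GC replicate 37 also called Junb, Ier2 and Dusp1 lower than in T_I, for 6 called members.

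The difference between T and N was itself different under GC and under I for 4 members. In this interaction, a positive value means that T minus N is higher under GC than under I. It was 1.80 for Nr4a1 (SE 0.24, adjusted p = 6.112e-05), 1.61 for Egr1 (SE 0.27, adjusted p = 0.0003217), 0.60 for Jund (SE 0.17, adjusted p = 0.01286) and -0.50 for Ier2 (SE 0.18, adjusted p = 0.04351). Of all genes 40.4% were called, 33.4% higher and 6.93% lower. With the median-of-ratios scale, Egr1 (1.24), Nr4a1 (1.40) and Ier2 (-0.92) were still called, Jund was not (0.17, adjusted p = 0.4219), and Junb was called lower (-0.73, adjusted p = 0.02847). The Ier2 call was lost in 12 of 25 alternative fits, with adjusted p from 0.001727 to 0.1101. Among these were the omission of replicate 8 or 12 of T_I, 92 or 96 of N_I, 10 or 21 of T_GC, 11 or 36 of N_GC, 26 of T_P and 38 of N_P.

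Codes P and I were not told apart by the members. In T_P against T_I no member was called by limma, 3 had an unadjusted p under 0.05 (Junb, Dusp1 and Nr4a1) beside 6.07% of all genes, and 0.012% of all genes were called. The interaction of P against I with the tumour called 0 members (2 at an unadjusted p under 0.05, Jun and Nr4a1, beside 6.89% of all genes) and 0.018% of all genes. In the N groups limma called 0 members in N_GC against N_I, where 1 had an unadjusted p under 0.05 (Nr4a1, beside 15.8% of all genes) and 2.75% of all genes were called, 0.451% higher and 2.3% lower. It also called 0 in N_GC against N_P (0 at an unadjusted p under 0.05, beside 14.3% of all genes, with calls for 1.17% of all genes, 0.427% higher and 0.745% lower) and 0 in N_P against N_I (0 at an unadjusted p under 0.05, beside 13.5% of all genes, with calls for 0.571% of all genes, 0.313% higher and 0.258% lower). These tests do not show equal levels, and their precision differed between members. For Ier2 the 95% interval of N_P minus N_I ran from -0.21 to 0.35, for Egr1 from -0.51 to 0.30 and for Dusp1 from -1.20 to 0.55.

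The spread between libraries of 1 group differed between members and between groups. In T_I the SD of log2(TPM + 1) was 0.91 for Dusp1, a value larger than that of 97.2% of genes tested, 0.71 for Jun (95.5%) and 0.53 for Fos (92.2%), where the median gene had 0.14. Jund (0.16), Nr4a1 (0.15) and Ier2 (0.08) were close to or below that median. In T_GC the values were 0.73 for Dusp1 and 0.59 for Jun, beside a median of 0.20. In T_P Dusp1 had an SD of only 0.12, below the median gene at 0.13, and Jun had 0.08 in N_I and 0.11 in N_GC, whereas Dusp1 in N_GC was wide at 0.54 (92.4%). After subtraction of the group means, Fos and Dusp1 deviated together over the 18 libraries (r = 0.81), as did Egr1 and Nr4a1 (r = 0.67), while Jun and Junb deviated in opposite directions (r = -0.61). Of the 45 pairs of members 31 had a positive r in these deviations and 14 a negative one. Libraries share their preparation and cell makeup, so the r are given without a test.

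**Figure D4:**
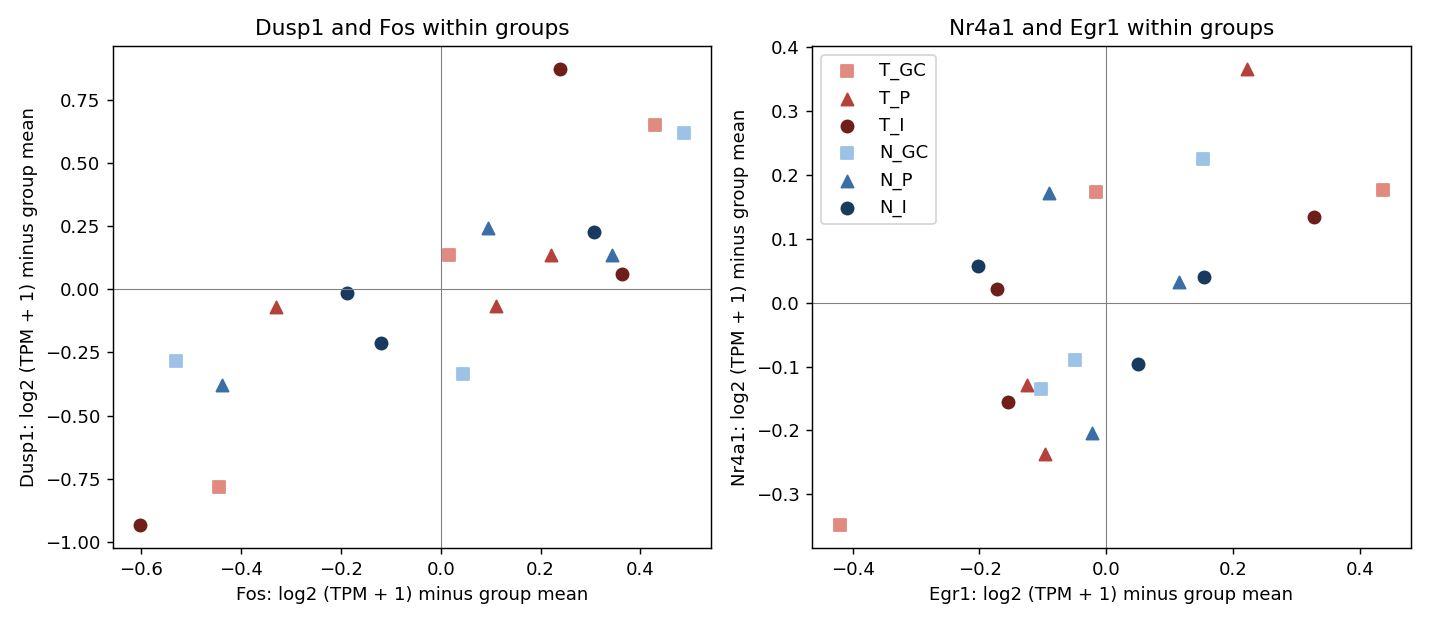
Deviation of each of the 18 libraries from its group mean in log2(TPM + 1), for Dusp1 against Fos (left) and Nr4a1 against Egr1 (right), with colour and marker giving the group. Dusp1 and Fos lie along a rising line (r = 0.81), with T_I and T_GC libraries at both ends, and Nr4a1 and Egr1 scatter more widely (r = 0.67).

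Within T_GC the members sorted the libraries in opposite ways. Replicate 10 had the highest Egr1, Nr4a1, Jund, Jun and Atf3 and the lowest Fos, Junb, Dusp1 and Ier2, and replicate 37 had the highest Fos, Junb, Dusp1 and Ier2 and the lowest Egr1, Nr4a1, Jund, Jun and Atf3. The B cell marker sum was 3600 TPM in replicate 10, 3038 in replicate 21 and 2315 in replicate 37, and the neutrophil sum was 37115, 60178 and 54601 TPM in the same order. The T cell sum ran against the B cell sum, at 423, 589 and 641 TPM, and the macrophage and monocyte sum was 1303, 1275 and 2169 TPM. With 3 libraries no relation was tested. By likeness of deviations, Junb was nearest to Socs3, the feedback inhibitor of cytokine receptors (r = 0.83), which was also its nearest gene over the 18 libraries as they stand (r = 0.958). Dusp1 was nearest to Tsc22d3, a gene known for its induction by glucocorticoids (r = 0.86), and to Zfp36l2, an RNA decay factor (r = 0.86). Stfa2l1 came next (r = 0.85). Over the 18 libraries as they stand, Dusp1 was nearest to Tsen34, Nceh1 and Rhob (0.86, 0.84 and 0.84). Fos was most like H1f2 (0.908), Adtrp (0.906) and Cebpb, a myeloid transcription factor (0.879), over the 18 libraries. By deviations Fos was nearest to Tmem160, Ccpg1 and Cd300lf (0.84, 0.81 and 0.80).

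Related genes outside the set also went in both directions. So did all genes in T_I against N_I, with 17.4% called higher and 52.4% lower. Counts in both directions are therefore not particular to these lists. Of the 17 other AP-1 and ATF factors 16 were tested, and 4 were higher and 8 lower in T_I against N_I (median -0.30, beside -0.45 for all genes). Mafg, a small Maf protein, rose by 1.67 (adjusted p = 9.231e-09), and Fosl2 stood at 35.1 ± 7.15 TPM in T_I, against 6.63 ± 2.11 TPM in N_I (2.26, adjusted p = 1.263e-07). Maf, used by T cells and macrophages, fell by 2.12 (adjusted p = 1.236e-08). Of the 20 other rapid-response transcription factors 17 were tested, with 3 higher and 10 lower (median -0.36). Nfil3, a basic zipper repressor of myeloid and lymphoid cells, rose by 3.15 to 49.6 ± 5.25 TPM in T_I, against 4.68 ± 0.51 TPM in N_I (adjusted p = 1.316e-10). Egr3, the paralog of Egr1, fell by 2.87 to 3.96 ± 1.21 TPM in T_I, against 34.5 ± 3.81 TPM in N_I (adjusted p = 1.423e-08). Egr2 (-1.92) and Nr4a3 (-1.66), picked after their values were seen, were also lower. Nr4a3 lay at 0.26 to 0.45 TPM in T_I, against 2.36 to 4.38 TPM in N_I, and passed the filter through N and T_GC libraries. The paralogs Egr4 and Nr4a2 did not pass the filter. Nr4a2 overlapped between the groups, at 0.40 to 0.59 TPM in T_I, against 0.43 to 0.78 TPM in N_I. All of these directions held under median-of-ratios scaling, with Egr3 at -2.41 and Nfil3 at 3.64, although the lists then counted 7 higher and 5 lower, and 7 higher and 6 lower.

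The brakes and the upstream kinases were also mixed, beside 17.4% of all genes called higher and 52.4% lower in T_I against N_I. Of 28 feedback inhibitors and RNA decay factors 27 were tested, and 6 were higher and 15 lower in T_I against N_I (median -0.50). Gadd45a, a stress-induced cell cycle brake, rose by 2.01 (adjusted p = 1.311e-08), and Dusp10, a phosphatase of JNK and p38, fell by 1.84 (adjusted p = 1.146e-08). Dusp2, a phosphatase of activated lymphocytes, moved opposite to Dusp1, at 13.5 ± 4.10 TPM in T_I, against 54.7 ± 4.58 TPM in N_I (-1.98, adjusted p = 1.05e-07). Of 25 upstream kinases and regulators 5 were higher and 16 lower (median -0.31). Mapk3, the kinase ERK1, rose by 1.83 to 230 ± 18.5 TPM in T_I, against 63.7 ± 3.90 TPM in N_I (adjusted p = 8.903e-11), and Mrtfb, a coactivator of serum response factor, fell by 1.34 (adjusted p = 5.451e-08). Median-of-ratios scaling gave 10 higher and 11 lower of the inhibitors and 12 higher and 8 lower of the upstream genes, with Mapk3 (2.36), Mrtfb (-0.93), Gadd45a (2.52), Dusp10 (-1.37) and Dusp2 (-1.47) called in the same directions.

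In T_P against N_P the same 4 lists counted 5 higher and 8 lower, 4 and 11, 6 and 17, and 7 and 15, in the order given, where 18.9% of all genes were called higher and 50.3% lower. With the median-of-ratios scale these became 7 and 4, 7 and 7, 9 and 10, and 11 and 7, so the balance turned in the lists of AP-1 and ATF factors and of upstream genes. In T_GC against N_GC they counted 4 higher and 1 lower, 5 and 5, 6 and 4, and 3 and 6, and rescaled 5 and 0, 6 and 4, 8 and 4, and 6 and 2. Before rescaling, 14.3% of all genes were called higher and 18.9% lower in that comparison. T_GC against T_I called 7 higher and 4 lower of the AP-1 and ATF factors, 11 and 3 of the rapid-response factors, 16 and 3 of the inhibitors and 14 and 5 of the upstream genes. Of all genes, 48.7% were called higher and 12.7% lower in T_GC against T_I, so these counts say little that is particular to the lists. There Egr3 (1.98), Maf (1.65), Dusp10 (1.85) and Elk4, a partner of serum response factor (1.47), had the smallest p among the genes that rose in their lists. Nfil3 (-1.72), Mafg (-1.09), Gadd45a (-1.02) and Mapk3 (-1.17) had the smallest p among those that fell. With the median-of-ratios scale, the T_GC against T_I counts became 3 higher and 6 lower, 6 and 6, 11 and 8, and 9 and 11.

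**Figure D5:**
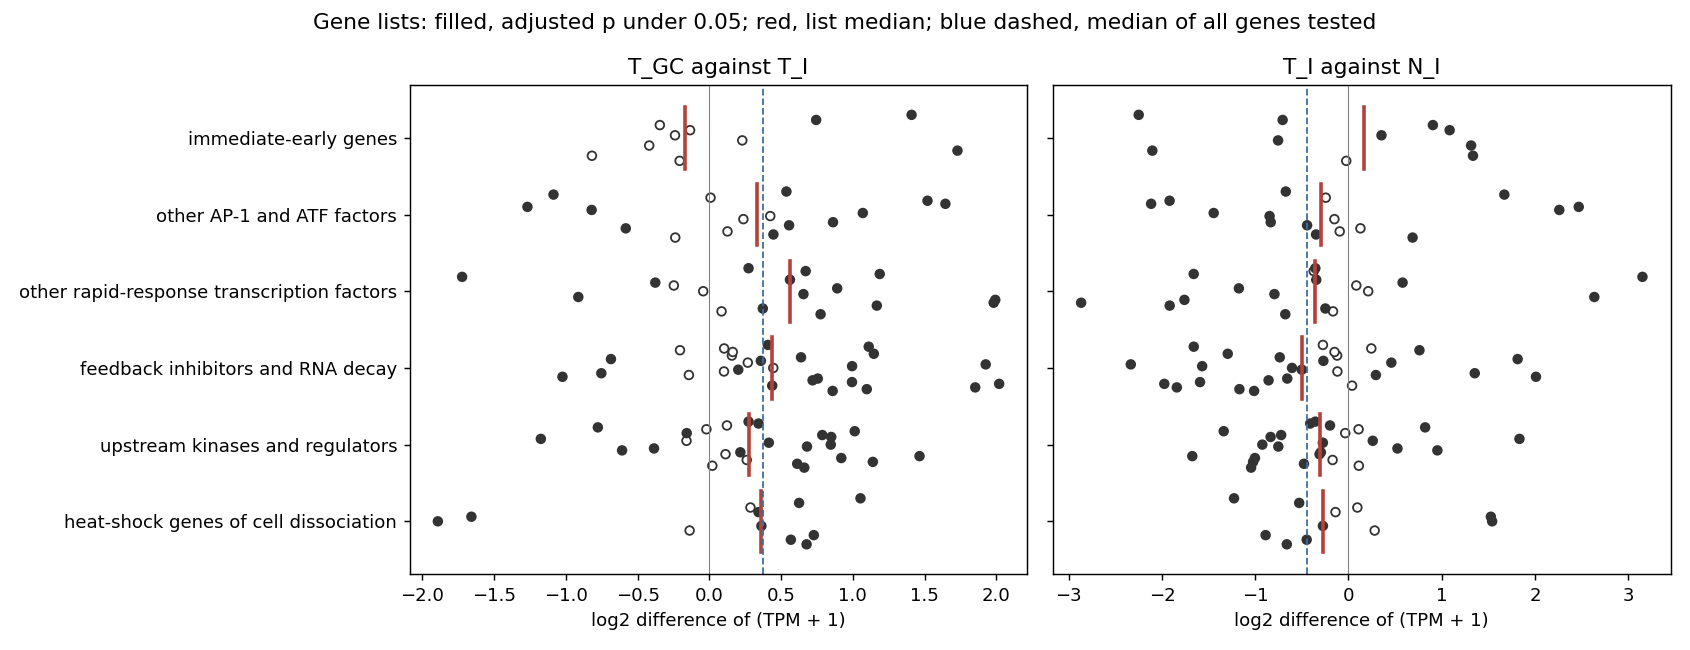
Difference of log2(TPM + 1) (horizontal axes) of each tested gene of the immediate-early set and 5 related lists (vertical axis), for T_GC against T_I (left) and T_I against N_I (right). Filled points have an adjusted p under 0.05, red bars are list medians and the blue dashed line is the median of all genes tested, 0.38 on the left and -0.45 on the right. The immediate-early genes spread to both sides in each panel, with a median of -0.17 on the left and 0.17 on the right, Fosb included.

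Genes of the heat-shock response, which cell dissociation is known to induce together with immediate-early genes, were also counted. In N_P against N_I all 11 heat-shock genes tested were higher (median 1.17, with 0.313% of all genes called higher), among them Dnaja1, a co-chaperone of Hsp70, at 541 ± 72.6 TPM in N_P, against 184 ± 27.4 TPM in N_I (1.56, adjusted p = 0.000216). Hspa1a, an inducible Hsp70, stood at 7.43 ± 1.79 TPM in N_P, against 0.96 ± 0.47 TPM in N_I. None of the 10 members was called in that comparison, and the difference between the list and the members was not tested. With the median-of-ratios scale, 11 of 12 heat-shock genes were higher there. In N_GC against N_P 7 heat-shock genes were lower, beside 0.745% of all genes, with Dnaja1 having the smallest p (-1.25, adjusted p = 0.0007408). In T_P against N_P 9 of 11 were lower and 0 higher (7 lower and 0 higher of 12 when rescaled). Of all genes, 50.3% were called lower and 18.9% higher in T_P against N_P. In T_I against N_I 2 heat-shock genes were higher, with Hspa1a the smaller p (1.54, adjusted p = 0.005575), and 6 were lower, with Dnajb4 the smallest p (-0.89, adjusted p = 1.55e-06), but the rescaled values turned this balance to 6 higher and 2 lower of 12. The shares of all genes before rescaling were 17.4% higher and 52.4% lower. T_GC against N_GC called none of the 11 heat-shock genes by limma, where 33.3% of all genes were called. T_GC against T_I called 7 higher and 2 lower, with Hspa1a having the smallest p of the genes that fell (-1.89), and rescaling made this 1 higher and 3 lower. All genes had 48.7% higher and 12.7% lower in T_GC against T_I before rescaling.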

How the data were processed

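For each of the 18 libraries the authors deposited TPM of 56876 genes, rounded to 2 decimals. The authors made the TPM with fastp and RSEM on GRCm39, per the submitters' processing notes; versions and settings are not given in the sources used here. RNA came from a spin-column kit and libraries from a SMARTer mRNA kit, per the labels. TPM keep no depth, so no count model, counting interval or detection limit was used. The intervals given for differences are limma's and rest on the spread between libraries. All 18 sample columns were used.

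Values were taken as log2(TPM + 1). The test covered the 16635 genes that reached 1 TPM in 3 or more libraries. Group means were fitted for all 6 groups by limma 3.58.1 under R 4.3.3, with files read by the data.table package, version 1.17.8, and the prior variance followed an intensity trend, with 12 residual degrees of freedom. All tests were two-sided with Benjamini-Hochberg adjustment over all genes tested within each of 11 comparisons. Calls were made at an adjusted p of 0.05. The procedure was tested on simulated data. Figures and promoter searches used Python 3.11.15, pandas 2.3.3, numpy 2.4.6 and matplotlib 3.10.9. Promoters are RefSeq's on GRCm38.p6, searched over 250 bases on both strands (TATAAA on the gene's strand).

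Members, lists and tests were chosen with earlier results of these data known. Named beside the members are the called gene with the smallest p per list and direction, and the 3 genes most correlated with a member among annotated genes with a mean of at least 5 TPM, of which not all are printed. Fosl2, Egr2, Nr4a3, Dusp2 and, in N_P against N_I, Hspa1a were named after their values were seen. Gene groups are given as counts and medians. Each call was recomputed with median-of-ratios scaling, without a filter or with one at 5 TPM, with 0.1 TPM added before the logarithm, with array weights or robust moderation, from the compared libraries alone, and without each library in turn. The labels name no batch.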

Additional observations from a re-analysis of the deposited data

Results flagged for a closer look

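The difference between T and N libraries was tested directly for a dependence on the code, and 4 members passed for GC against I. In the same test 40.4% of all genes were called, 33.4% higher and 6.93% lower. The count of members that passed therefore says little that is particular to this set. Nr4a1 differed by 1.80 (SE 0.24, limma adjusted p = 6.112e-05), with T minus N at -0.45 under GC and -2.25 under I. Egr1 differed by 1.61 (SE 0.27, adjusted p = 0.0003217), with -0.49 under GC and -2.10 under I. Jund differed by 0.60 (SE 0.17, adjusted p = 0.01286), with -0.11 under GC and -0.71 under I, and this call was lost under median-of-ratios scaling. Ier2 differed by -0.50 (SE 0.18, adjusted p = 0.04351), with -0.14 under GC and 0.35 under I, the least stable of these calls. Groups of 3 are too small for a test of outlying libraries, so none was made.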

How the results depend on the processing

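Robust moderation and a pseudocount of 0.1 changed none of the 110 member calls, and no called value turned its direction under any alternative. Leaving out 1 library at a time gave 1980 values, of which 24 lost and 22 gained a call and 49 uncalled values changed sign. The count of called members then ranged from 7 to 9 in T_I against N_I, 6 to 8 in T_P against N_P, 1 to 5 in T_GC against N_GC, 3 to 6 in T_GC against T_I, 4 to 5 in T_GC against T_P and 3 to 4 in the GC interaction, and was 0 in the rest. In T_GC against N_GC the highest count, 5, came without T_GC replicate 10, and the count was 1 without T_GC replicate 21 or N_GC replicate 11 or 36. That comparison called 1 member in place of 2 with no filter, with array weights and when the compared libraries were fitted alone; the cause was not tested. T_GC against T_I called 8 in place of 3 under median-of-ratios scaling, which moved 10 of 99 values past the threshold and 3 below it. A filter of 5 TPM left 88 values, since Fosb and Atf3 were not tested. No paired analysis was possible because the groups share no replicate numbers. TPM hold no depth, so precision at low levels, that of Fosb above all, cannot be given.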
